A study of Homo sapiens with 6 samples.

Results

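Replication-dependent histone genes, which lie in clusters and carry names that begin with HIST1H to HIST4H, were described in MCF10A cells with and without knockdown of DAB2IP. A gene was a member if its name in the deposited count table had this form and its annotated type was protein coding, a rule that uses no measured value. The rule found 71 of the 58735 genes of the table, 55 in the HIST1 cluster on chromosome 6, 12 in HIST2 and 3 in HIST3 on chromosome 1, and the single gene HIST4H4 on chromosome 12. Of these, 6 encode linker histone H1, 17 H2A, 18 H2B, 15 H3 and 15 H4. MCF10A is an established, nonmalignant cell line from human mammary epithelium. The cells were transfected with siRNA against DAB2IP (siDAB2IP) or with a nontargeting control pool (siControl) and collected 48 hours later, and 3 RNA-Seq libraries were made from each group. All 6 libraries are from the same line, and whether the replicates of a group were separate cultures is not given in the sources used here, so the p-values measure only the spread between these libraries.

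Histones H2A, H2B, H3 and H4 form the protein core around which DNA is wound into a nucleosome, and H1 binds the DNA between nucleosomes. Most of this protein is made while DNA is copied, from clustered genes without introns that are transcribed in S phase. Unlike other mRNAs, theirs have no poly(A) tail and end a few bases after a conserved stem-loop that is bound by SLBP. Some of these genes also give longer transcripts that run past the stem-loop and are polyadenylated, and cells that stop dividing are known to use this form more. Whether poly(A)+ RNA was selected for these libraries is not given in the sources used here, and replication dependence itself was not measured.

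The stem-loop is shown first because it decides how the mRNA of a member ends. It was searched in the transcripts of GENCODE release 29 as 16 bases that start with GG, end with CC and fold into 6 base pairs around a loop of 4 bases, within 120 bases after the stop codon. It was found in 32 members, in 6 different forms, with 22 to 67 bases (median 35.5) between it and the stop codon. The run taken for HIST1H2BN (27865771 to 27865798 on chromosome 6) lies just past the end of the HIST1H2AL model (27865747). Capitals mark the 16 bases, the lower case bases on each side are from the same transcript, and T stands for U. Positions are on GRCh38 and cover the whole run shown.
HIST1H2AC, chr6:26124662-26124691, plus strand: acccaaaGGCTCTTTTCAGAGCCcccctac
HIST2H2BE, chr1:149886181-149886210, minus strand: ctccaaaGGCTCTTTTCAGAGCCacccacc
HIST1H2BD, chr6:26158580-26158609, plus strand: tcccaaaGGCTCTTTTAAGAGCCacgcatg
HIST1H3E, chr6:26225589-26225616, plus strand: atccaaaGGCTCTTCTCAGAGCCaacca
HIST1H4H, chr6:26285124-26285153, minus strand: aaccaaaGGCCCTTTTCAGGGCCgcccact
HIST1H4I, chr6:27139647-27139676, plus strand: ctaaaaaGGCCCTTTTTAGGGCCcctaagc
The form of HIST1H2AC and HIST2H2BE was the most frequent, in 17 members of the classes H2A, H2B and H3. The form of HIST1H2BD was found in 5 members, 3 of them H2B and 2 H3, and that of HIST1H3E in no other member. The 8 H4 members with a stem-loop had only forms with a longer run of C and G in the stem, 5 like HIST1H4H and 3 like HIST1H4I. A sixth form was found in HIST1H2AG alone. The runs shown lie in the 3′ UTR of these genes.

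Few of the members were well measured. Of the 71, 57 had at least 1 count in any library, 31 had at least 1 in every library, 24 at least 3 in every library and 18 at least 10 in every library. The other 14 members were at 0 in all 6 libraries, which leaves room for up to 3 counts per library, or 0.137 to 0.183 CPM (counts relative to the library total, scaled with the TMM factors of edgeR) by counting error. Of these 14, 5 encode H4, 4 H2A, 2 H2B, 2 H3 and 1 H1. A further 19 members were detected with fewer than 10 counts over all libraries together. Of all 13553 counts on the members, 22.6% were on HIST3H2A alone, and 81.5% were on the 10 members with most counts. The filter on low counts kept 21 members for the test, 1 H1, 3 H2A, 10 H2B, 3 H3 and 4 H4, and these 21 held 95.7% of the counts. The 50 members that it left out had 0 to 80 counts in all, and the highest mean FPKM among them was 0.971.

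The level per length, as the mean over the 6 libraries of the deposited FPKM (counts divided by gene length and library total), was highest for HIST3H2A (31.4) and HIST1H2BK (26.6), an H2A and an H2B gene. HIST1H1C, the gene of linker histone H1.2, followed with 11.5 FPKM, close to HIST1H2AC with 11.3 FPKM. HIST1H2BD had 8.43 FPKM, HIST1H4K 4.52 FPKM, HIST2H2BE 4.14 FPKM, HIST1H3E 3.54 FPKM, HIST1H4I 3.22 FPKM and HIST2H3D 1.94 FPKM. Whether neighbors in this order were apart was looked at for the first 4. In the siControl libraries HIST3H2A was at 29.7 ± 5.74 FPKM and HIST1H2BK at 30.2 ± 5.98 FPKM (SD, n = 3), and in the siDAB2IP libraries they were at 33.0 ± 5.12 and 23.02 ± 1.70 FPKM (SD, n = 3). The libraries of this pair overlapped in siControl and did not in siDAB2IP. HIST1H1C and HIST1H2AC overlapped in both groups, with 14.7 ± 1.33 against 13.7 ± 1.75 FPKM in siControl and 8.30 ± 0.85 against 8.88 ± 1.08 FPKM in siDAB2IP (SD, n = 3).

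How much of a gene is annotated bears on these levels, because reads are counted only on annotated bases and FPKM divides by the annotated length. The models of 35 members end at the stop codon, so no stem-loop could be looked for. Of these, 22 were detected and 4 were tested, HIST1H2BK, HIST1H1C, HIST1H4K and HIST2H3D. In 22 members the model runs at least 200 bases past the stem-loop, and all 22 were detected. They held 74.7% of the member counts, 14 of them were tested, and their median level was 0.918 FPKM, against 0.0477 FPKM for the models that end at the stop codon. Of the FPKM summed over all members, these 22 held 51.2% and the 35 models that end at the stop codon held 38.0%. In 10 members the model holds a stem-loop with fewer than 200 bases after it, and 9 of these were detected and 2 tested. The other 4 have bases after the stop codon in which no stem-loop was found, and only HIST1H2BJ among them was tested. A poly(A) signal, AATAAA or ATTAAA, stood in the last 50 bases of a transcript of 23 members, and all 23 were detected. These are descriptions of the annotation and the level side by side, and the share of long and stem-loop ends among the reads was not measured.

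**Figure D1:**
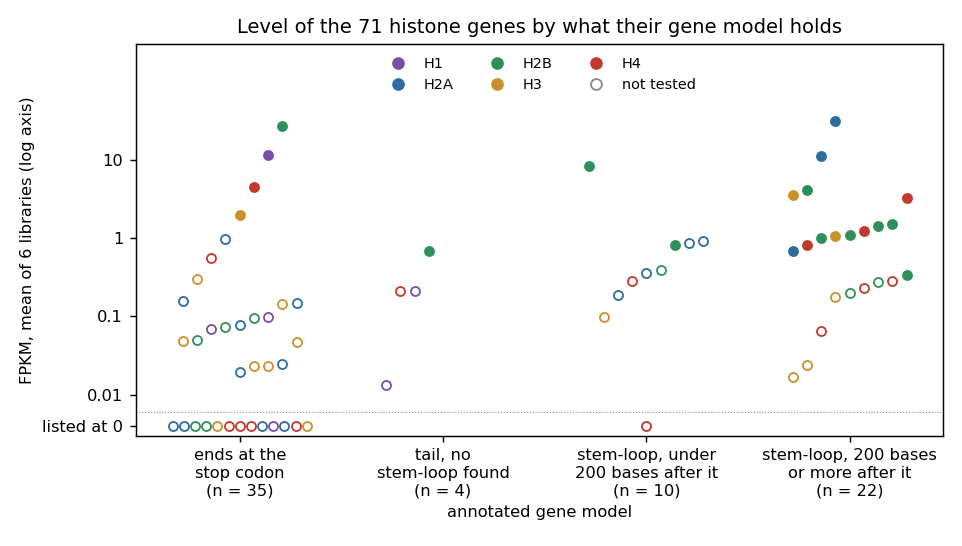
Mean FPKM over 6 libraries (log axis) of the 71 histone genes, each a point colored by class and filled if it was tested, grouped by what the annotated gene model holds. The 22 models that run 200 bases or more past the stem-loop are all above 0, while 13 of the 35 models that end at the stop codon are listed at 0.

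Counting was also limited by near-identical copies and overlaps. At least 50% of the stretches of 100 bases were shared with another gene in 15 members, among them HIST1H4K (100%) and HIST2H3D (51.3%) of those tested, whose values are therefore uncertain. At least 85% of the exonic bases of 5 members lie in exons of another gene, and 4 of these 5 were at 0 in every library. They include HIST1H3D and HIST1H2AD, which lie inside exons of AL031777.3 on the same strand, so a 0 there does not show that the gene is silent. Of the 21 members tested, 2 overlap another gene, HIST2H2BF over 5.54% and HIST1H2BN over 7.25% of their exonic bases.

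Each library held 16353783 to 21916062 counts, and the common biological coefficient of variation was 14.8%. DAB2IP was at 103, 94.2 and 77.4 CPM in the siControl libraries and at 27.5, 25.6 and 22.4 CPM in the siDAB2IP libraries (log2 fold change −1.86, standard error 0.13). All 9 markers of mammary basal and luminal epithelium on the list were expressed. Of these, 3 fell (33.3%, against 7.65% of all genes tested), the basal keratins KRT5, KRT14 and KRT17. The others were not past the threshold. TP63 had a log2 fold change of −0.57 (edgeR adjusted p = 0.0615), and ITGB4, EGFR, CDH1, KRT8 and KRT18 had values from 0.02 to 0.12. Of the 6 markers of other cells, PGR was at 0 everywhere, ESR1, PTPRC, COL3A1 and CD68 did not pass 0.609 CPM in any library, and PECAM1 lay between 3.54 and 9.39 CPM.

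With knockdown of DAB2IP, 4 histone genes of 4 classes fell and none rose. HIST1H1C, HIST1H2AC, HIST2H2BE and HIST1H4H, which encode an H1, an H2A, an H2B and an H4, were lower, with log2 fold changes from −0.62 to −1.15 and every siDAB2IP library below every siControl library. The 4 are 19.0% of the 21 members tested by the quasi-likelihood test of edgeR at a Benjamini-Hochberg adjusted p under 0.05, while 7.65% of all 15430 genes tested fell and 6.55% rose. At an unadjusted p under 0.05, 5 members were lower and 1 was higher. DESeq2, over 57 members, also found 4 members lower and 0 higher. The shares over all genes at these settings are not given here, so these counts cannot be set against them. The groups did not overlap for 6 members, all of them lower in siDAB2IP, where 18.3% of all genes tested were lower without overlap and 17.6% higher. The log2 fold change was negative for 14 of the 21 and positive for 7, and the median was −0.38 against 0.009 over all genes tested. In this bulk RNA, fewer cells in S phase and less histone RNA per cell cannot be told apart. The count of 4 depended on single libraries, as leaving out siControl replicate 1, 2 or 3 gave 2, 0 or 1, and leaving out siDAB2IP replicate 1, 2 or 3 gave 3, 2 or 4.

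**Figure D2:**
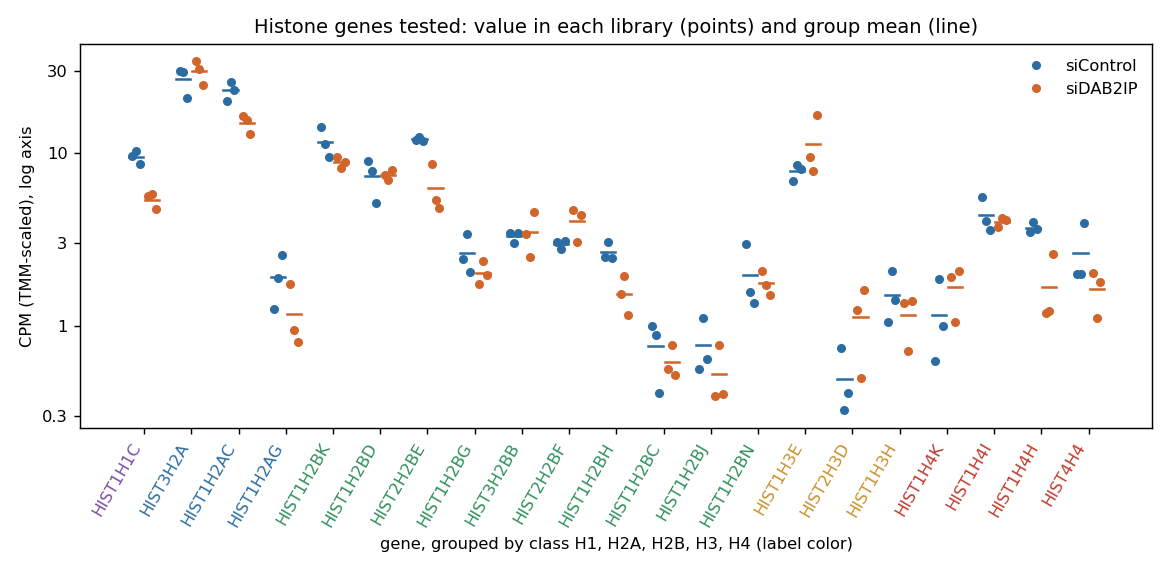
TMM-scaled CPM (log axis) of the 21 histone genes tested in each of the 3 siControl libraries (blue points) and 3 siDAB2IP libraries (orange points), with the group means as lines and gene names colored by class. The points of the groups are apart for HIST1H1C, HIST1H2AC, HIST2H2BE, HIST1H4H, HIST1H2BK and HIST1H2BH, and they overlap for the other 15.

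HIST1H1C (ENSG00000187837) lies on chromosome 6 from 26055787 to 26056428 on the minus strand, and its model is the coding sequence of 642 bases alone. It was at 9.60, 10.3 and 8.63 CPM in the siControl libraries and at 5.64, 5.76 and 4.75 CPM in the siDAB2IP libraries. No siDAB2IP library reached the lowest siControl library. It fell by 0.82 on the log2 scale (standard error 0.17, edgeR adjusted p = 0.013), and it was called in every fit that left out 1 library except that without siControl replicate 2 (adjusted p = 0.0706).

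HIST1H2AC (ENSG00000180573), an H2A gene, spans chromosome 6 from 26124145 to 26139116 on the plus strand, with a longest annotated tail of 1187 bases after the stop codon. It was at 20.0, 25.8 and 23.3 CPM in the siControl libraries and at 16.4, 15.6 and 12.9 CPM in the siDAB2IP libraries. The lowest siControl value was above the highest siDAB2IP value. It fell by 0.62 on the log2 scale (standard error 0.15, edgeR adjusted p = 0.0227), and it missed the threshold with siControl replicate 2 left out (adjusted p = 0.107) and with replicate 3 of that group left out (adjusted p = 0.0643).

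HIST2H2BE (ENSG00000184678), an H2B gene of the HIST2 cluster, lies on chromosome 1 from 149884459 to 149886652 on the minus strand, with 1801 bases after the stop codon. It was at 11.96, 12.3 and 11.8 CPM in the siControl libraries, the tightest group of the 4 genes, and at 8.69, 5.37 and 4.81 CPM in the siDAB2IP libraries. The siDAB2IP libraries were all lower, and replicate 1 was the least low. It fell by 0.94 on the log2 scale (standard error 0.22, edgeR adjusted p = 0.0212). With siControl replicates 1, 2 and 3 left out in turn its adjusted p was 0.0578, 0.0777 and 0.0561, and with siDAB2IP replicate 2 left out it was 0.059.

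HIST1H4H (ENSG00000158406), an H4 gene, spans chromosome 6 from 26277609 to 26285638 on the minus strand, with a longest tail of 1712 bases after the stop codon. It was at 3.49, 3.99 and 3.64 CPM in the siControl libraries and at 1.18, 1.22 and 2.61 CPM in the siDAB2IP libraries, from 21 to 86 counts per library. Replicate 3 was the highest of the siDAB2IP libraries and still below all siControl libraries. It fell by 1.15 on the log2 scale (standard error 0.32, edgeR adjusted p = 0.0406). It was past the threshold in only 1 of the 6 fits without 1 library, that without siDAB2IP replicate 3 (adjusted p = 0.0026), and its adjusted p was 0.0909, 0.143 and 0.101 with siControl replicate 1, 2 and 3 left out, and 0.11 and 0.105 with siDAB2IP replicate 1 and 2 left out.

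**Figure D3:**
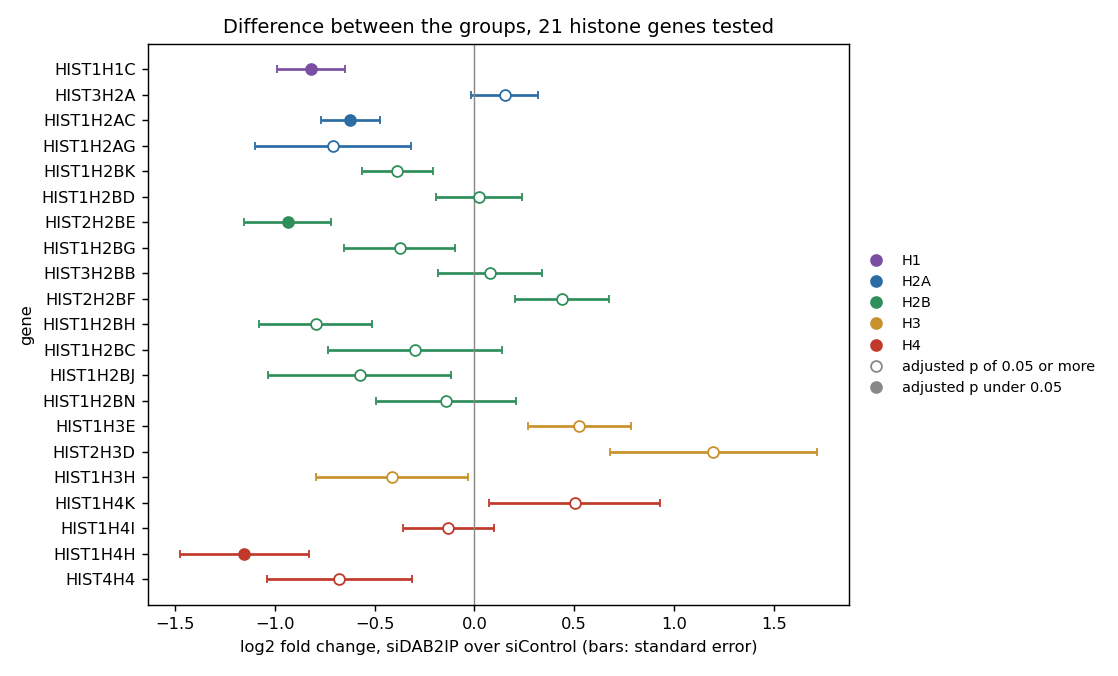
Log2 fold change of siDAB2IP over siControl for the 21 histone genes tested, with the standard error as bars, colored by class and filled where the edgeR adjusted p is under 0.05. The 4 filled points lie between −0.62 and −1.15, and the highest point is HIST2H3D at 1.197 with a standard error of 0.52.

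The sequences before the start of the 4 genes that fell are given so that the letters before the genes that were called can be read side by side. They are the 250 bases before the RefSeq start on GRCh38.p14, read 5′ to 3′ on the strand of the gene. Capitals mark TATAAA, the core of a TATA box, CCAAT, and ATTTGCAT, the octamer that POU factors such as OCT1 bind in H2B promoters, each on either strand. No marked motifs overlap in these sequences.
HIST1H1C, chr6:26056471-26056720, minus strand: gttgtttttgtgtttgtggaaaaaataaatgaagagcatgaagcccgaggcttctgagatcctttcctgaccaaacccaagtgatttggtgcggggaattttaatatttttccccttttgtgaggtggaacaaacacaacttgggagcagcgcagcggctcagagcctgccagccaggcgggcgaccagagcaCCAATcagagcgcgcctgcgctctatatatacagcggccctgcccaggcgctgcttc
HIST1H2AC, chr6:26123922-26124171, plus strand: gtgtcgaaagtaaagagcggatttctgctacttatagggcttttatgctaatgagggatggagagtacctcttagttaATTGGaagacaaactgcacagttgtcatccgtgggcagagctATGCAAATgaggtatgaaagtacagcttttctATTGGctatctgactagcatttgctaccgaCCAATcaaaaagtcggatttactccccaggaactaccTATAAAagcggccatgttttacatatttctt
HIST2H2BE, chr1:149886683-149886932, minus strand: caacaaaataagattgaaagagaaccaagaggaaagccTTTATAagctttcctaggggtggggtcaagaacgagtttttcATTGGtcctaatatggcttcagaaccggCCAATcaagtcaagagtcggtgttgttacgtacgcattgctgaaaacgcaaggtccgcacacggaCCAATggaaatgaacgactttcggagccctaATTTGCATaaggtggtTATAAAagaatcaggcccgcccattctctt
HIST1H4H, chr6:26285535-26285784, minus strand: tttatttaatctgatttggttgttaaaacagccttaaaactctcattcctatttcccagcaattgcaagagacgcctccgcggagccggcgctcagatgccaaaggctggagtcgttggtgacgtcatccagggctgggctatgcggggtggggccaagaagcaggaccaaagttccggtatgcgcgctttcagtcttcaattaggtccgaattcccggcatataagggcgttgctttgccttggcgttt
The 4 did not share one set of these letters. HIST1H2AC and HIST2H2BE held all 3 motifs, HIST1H1C held CCAAT only, and HIST1H4H held none. Only these exact letters were searched, so a TATA box with other letters would not be marked. The window of HIST1H4H (26285535 to 26285784) overlaps its counted gene model, which ends at 26285638. A RefSeq promoter was found for 66 of the 71 members, and 65 were used. That of HIST1H3D was left out, since RefSeq places its start 2043 bases before the gene model used for counting, at the start of the H2A gene HIST1H2AD. TATAAA was in 67.7% of these 65 and in 10.7% of the 35116 promoters of the table, CCAAT in 84.6% and 32.0%, and ATTTGCAT in 38.5% and 1.63%. The classes differed in what they held. CCAAT was in all promoters of H1, H2A, H2B and H3 members and in 23.1% of those of H4, and ATTTGCAT was in 68.8% of H2A and 77.8% of H2B promoters and in no H1, H3 or H4 promoter. Windows of H2A and H2B neighbors can cover nearly the same bases. Those of HIST1H2AC (26123922 to 26124171) and HIST1H2BC (26123927 to 26124176) on chromosome 6 are an example. A motif there was counted for both genes, so these shares do not count separate sites. Among the 21 members tested ATTTGCAT was in 42.9%, and among the 12 members at 0 in every library that had a promoter it was in 41.7%.

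In the class of H1, whose members bind linker DNA, the sum of CPM over all 6 genes was 9.84, 10.6 and 8.98 in the siControl libraries and 5.98, 6.09 and 4.87 in the siDAB2IP libraries. The groups were apart, and this sum is almost wholly HIST1H1C. The other 5 H1 genes had 0 to 18 counts in all.

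In the class of H2A the sums overlapped. They were 53.0, 59.8 and 48.4 CPM in siControl and 54.0, 49.2 and 39.5 CPM in siDAB2IP. HIST3H2A, the member with most counts, was at 30.03, 29.6 and 20.9 CPM in siControl and at 33.9, 30.8 and 24.9 CPM in siDAB2IP. Its groups overlapped, and it did not pass the test (log2 fold change 0.15, standard error 0.17). HIST1H2AG did not pass the test (log2 fold change −0.71, standard error 0.39, edgeR adjusted p = 0.259). The 14 H2A members left out of the test had 0 to 53 counts in all.

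In the class of H2B, the sum over 18 genes was 52.7, 48.9 and 41.9 CPM in siControl and 40.7, 34.5 and 37.1 CPM in siDAB2IP. Each siDAB2IP library was lower, and siControl replicate 3 was only just above siDAB2IP replicate 1. The sum includes HIST2H2BE, which fell and was at 11.96, 12.3 and 11.8 CPM in siControl and at 8.69, 5.37 and 4.81 CPM in siDAB2IP. It was called in these same libraries, so the sum does not show that the other H2B members were lower. HIST1H2BK was at 14.1, 11.2 and 9.51 CPM in siControl and at 9.48, 8.20 and 8.93 CPM in siDAB2IP (log2 fold change −0.39, standard error 0.18, edgeR adjusted p = 0.174). Its groups were apart by a margin smaller than the spread within siControl. HIST1H2BH was also lower without overlap, at 2.49, 3.06 and 2.47 against 1.52, 1.94 and 1.16 CPM, and was not past the threshold (log2 fold change −0.80, standard error 0.28, edgeR adjusted p = 0.0881). HIST1H2BD was at 9.03, 7.89 and 5.17 CPM in siControl and at 7.45, 6.98 and 8.001 CPM in siDAB2IP (log2 fold change 0.02, standard error 0.22). HIST2H2BF, a neighbor of HIST2H2BE in the same cluster, was at 3.05, 2.79 and 3.11 CPM in siControl and at 4.68, 3.05 and 4.41 CPM in siDAB2IP (log2 fold change 0.44, standard error 0.24, edgeR adjusted p = 0.245). HIST1H2BG, HIST3H2BB, HIST1H2BC, HIST1H2BJ and HIST1H2BN overlapped between the groups, with log2 fold changes from −0.58 to 0.08.

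In the class of H3 no member passed the test. The sum over 15 genes was 9.66, 12.1 and 11.1 CPM in siControl and 12.9, 9.58 and 19.9 CPM in siDAB2IP, so that siDAB2IP held both the lowest and the highest library. HIST1H3E made most of the highest sum. It was at 6.85, 8.59 and 8.10 CPM in siControl and at 9.53, 7.92 and 16.5 CPM in siDAB2IP, where replicate 3 held 285 counts (log2 fold change 0.52, standard error 0.26, edgeR adjusted p = 0.204). HIST2H3D, a low gene with 7 to 28 counts per library, was at 0.748, 0.325 and 0.411 CPM in siControl and at 1.24, 0.498 and 1.62 CPM in siDAB2IP. Its log2 fold change of 1.197 (standard error 0.52) was the highest of the members tested and was not past the threshold (edgeR adjusted p = 0.152, unadjusted p = 0.0432). HIST1H3H did not pass the test (log2 fold change −0.41, standard error 0.38).

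In the class of H4, the sum over 15 genes was 13.4, 13.6 and 13.9 CPM in siControl and 9.93, 8.36 and 11.8 CPM in siDAB2IP. The siControl libraries were close to each other and all above the siDAB2IP libraries. The sum includes HIST1H4H, which fell in these same libraries. HIST1H4K, the H4 gene with the highest FPKM, was at 0.623, 1.86 and 0.998 CPM in siControl and at 1.92, 1.05 and 2.09 CPM in siDAB2IP (log2 fold change 0.50, standard error 0.43, edgeR adjusted p = 0.482). HIST1H4I was at 5.61, 4.04 and 3.58 CPM in siControl and at 3.72, 4.21 and 4.12 CPM in siDAB2IP (log2 fold change −0.13, standard error 0.23). HIST4H4, the gene outside the 3 larger clusters, was at 1.99, 1.996 and 3.93 CPM in siControl and at 2.03, 1.11 and 1.80 CPM in siDAB2IP (log2 fold change −0.68, standard error 0.36, edgeR adjusted p = 0.243). These 3 H4 genes overlapped between the groups.

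**Figure D4:**
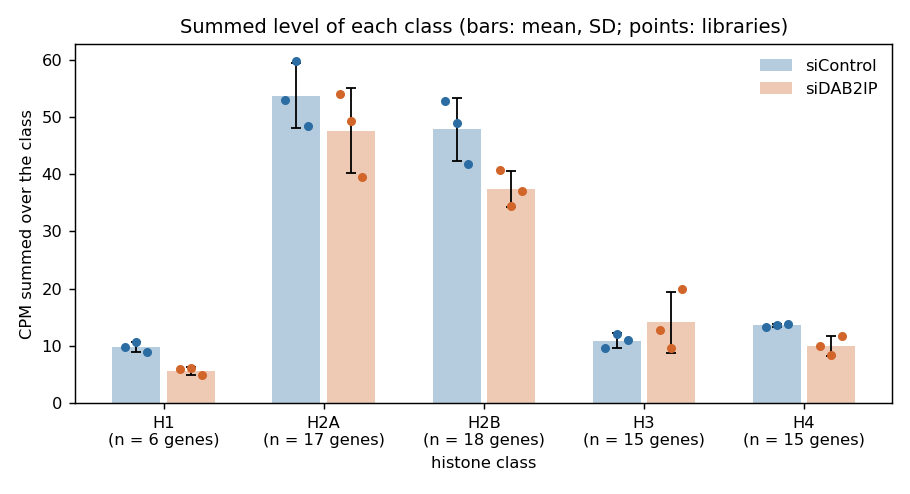
CPM summed over all members of each histone class, with the mean (bars), the SD (black lines) and the 3 libraries of siControl (blue) and siDAB2IP (orange). The siDAB2IP libraries are all below the siControl libraries for H1, H2B and H4, and the groups overlap for H2A and H3. The sums include the members that fell, HIST1H1C (H1), HIST1H2AC (H2A), HIST2H2BE (H2B) and HIST1H4H (H4).

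Over all 71 members, the sum was 139, 145 and 124 CPM in siControl and 123, 108 and 113 CPM in siDAB2IP, that is 136 ± 10.7 and 115 ± 7.98 CPM (SD, n = 3) and a log2 ratio of −0.24. The lowest siControl library was above the highest siDAB2IP library by less than 1 SD of either group. Without the 4 genes that fell, the sums were 87.7 ± 9.39 and 86.5 ± 6.06 CPM (SD, n = 3), and they overlapped. The 4 were left out because they were lower in these same libraries, so this sum cannot show whether the other members changed. The 50 members left out of the test summed to 6.29 to 7.29 CPM in siControl and 3.42 to 4.85 CPM in siDAB2IP, without overlap, from 59 to 157 counts per library.

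Many members encode the same protein. With 1 annotated coding sequence taken per gene, the 71 genes give 6 different H1 proteins, 11 of H2A, 14 of H2B, 4 of H3 and 2 of H4. The H2B count depends on this choice, as HIST1H2BN enters with 166 residues and HIST2H2BF with 134. One H4 protein of 103 residues is encoded by 14 members, and their FPKM ranged from 0 to 4.52, so that HIST1H4K alone held 39.5% of it. Summed over the 14, it was 11.8 FPKM in siControl and 10.99 FPKM in siDAB2IP, while HIST1H4H fell. One H3 protein of 136 residues is encoded by 10 members, of which HIST1H3E held 65.9% of the FPKM, and the sums were 5.18 FPKM in siControl and 5.57 FPKM in siDAB2IP. These sums mix gene models of very different length, and no test was made of them.

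H2A and H2B genes often stand head to head and are transcribed away from a shared promoter region. Among the members 11 such pairs were found, with 218 to 330 bases (median 282) between the gene models. In 8 pairs both genes were detected, and in 3 both were tested. The levels within a pair ranged from nearly equal, with HIST1H2BJ at 0.677 FPKM beside HIST1H2AG at 0.678 FPKM, to far apart, with HIST1H2AC at 11.3 FPKM beside HIST1H2BC at 0.822 FPKM, HIST3H2A at 31.4 beside HIST3H2BB at 1.42 FPKM, and HIST1H2BK at 26.6 beside HIST1H2AH at 0.0781 FPKM. HIST1H2AC fell, and its neighbor HIST1H2BC, with 7 to 19 counts per library, did not pass the test (log2 fold change −0.30, standard error 0.44). HIST3H2A and HIST3H2BB had log2 fold changes of 0.15 and 0.08, and HIST1H2AG and HIST1H2BJ of −0.71 and −0.58, none past the threshold. HIST2H2BE fell, and its neighbor HIST2H2AC had 41 counts in all and was not tested. HIST1H2AH and HIST2H2AC are named as partners of these genes, chosen after their values were seen.

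Other genes of histone supply were taken as lists. Of the 19 genes listed as replication-independent histone genes, 11 were tested. The mRNAs of this class are mostly polyadenylated and made outside S phase as well, which was not checked for each gene. Of those tested, 4 fell (36.4%, against 7.65% of all genes tested) and 0 rose (6.55% of all genes tested). At an unadjusted edgeR p under 0.05, 6 genes of the list were lower and 0 higher, and DESeq2, over 12 genes, gave 6 lower and 0 higher. The shares over all genes at these settings are not given here. The median log2 fold change was −0.60. A further 7 were at 0 in every library. H1FX, a linker histone, was at 51.3, 52.6 and 40.6 CPM in siControl and at 30.6, 27.6 and 18.3 CPM in siDAB2IP (log2 fold change −0.92, edgeR adjusted p = 0.0116). H2AFY2, which encodes macroH2A2, was at 22.9 ± 4.49 and 12.3 ± 2.18 CPM in siControl and siDAB2IP (SD, n = 3). CENPA, the H3 variant of centromeres, was at 8.29, 8.22 and 10.6 CPM in siControl and at 3.95, 6.09 and 2.55 CPM in siDAB2IP. H2AFV, an H2A.Z gene, was at 53.8 ± 3.28 and 33.5 ± 10.1 CPM (SD, n = 3). In these genes, as in the list as a whole, siDAB2IP replicate 3 was the lowest library, and the count of 4 became 2, 0 and 2 with siControl replicate 1, 2 and 3 left out and 2 with siDAB2IP replicate 1 left out.

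Of the 28 genes of histone mRNA synthesis and processing, all were tested, 3 fell and 1 rose, and the median log2 fold change was −0.21. The shares of 10.7% that fell and 3.57% that rose are near those of all genes tested, 7.65% and 6.55%. SLBP, which binds the stem-loop, was at 33.3, 32.2 and 33.1 CPM in siControl and at 31.9, 32.8 and 25.6 CPM in siDAB2IP, with overlap (log2 fold change −0.13, standard error 0.12, edgeR adjusted p = 0.531). NPAT, the coactivator of clustered histone genes, was at 18.7, 22.5 and 22.5 CPM in siControl and at 17.8, 18.4 and 17.4 CPM in siDAB2IP, apart but not past the threshold (log2 fold change −0.25, standard error 0.13, edgeR adjusted p = 0.219). CDK2, the kinase that with cyclin E phosphorylates NPAT, fell from 20.4 ± 2.26 to 13.96 ± 2.31 CPM, NCBP1, a cap-binding protein, from 79.5 ± 10.9 to 59.0 ± 3.13 CPM, and XRN1, a 5′ to 3′ exonuclease, from 46.3 ± 2.02 to 34.0 ± 2.23 CPM (SD, n = 3). LSM10, a subunit of the U7 snRNP that cleaves histone pre-mRNA, was at 11.8, 11.2 and 11.04 CPM in siControl and at 17.1, 19.6 and 17.5 CPM in siDAB2IP (log2 fold change 0.67, standard error 0.13, edgeR adjusted p = 0.0104). It was the 1 gene of the list that rose, and it was not past the threshold with siControl replicate 2 left out (adjusted p = 0.0628). In the same fit none of the 3 was past the threshold, and without siControl replicate 1 or 3, or siDAB2IP replicate 1 or 2, 1 was.

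Of the 30 histone chaperone genes, all tested, 8 fell (26.7%, against 7.65% of all genes tested) and 1 rose (3.33%, against 6.55%), and the median log2 fold change was −0.22. Those that fell were CHAF1A and RBBP4 of the CAF-1 complex that deposits H3 and H4 behind the replication fork, NASP, which binds H3 and H4, SSRP1 of the FACT complex, MMS22L, HJURP, the chaperone of CENPA, CABIN1 and NPM1. CHAF1A was at 36.0 ± 2.66 and 20.2 ± 3.42 CPM and NASP at 157 ± 10.8 and 93.6 ± 25.2 CPM in siControl and siDAB2IP (SD, n = 3). VPS72, a subunit of complexes that exchange H2A.Z, was the 1 that rose (log2 fold change 0.36, edgeR adjusted p = 0.045), and it was past the threshold in only 1 of the 6 fits without 1 library, that without siDAB2IP replicate 3 (adjusted p = 0.0411), while its adjusted p was 0.0756 to 0.166 in the other 5. With the replicate number as a block 2 rose. Of these 30, 2 and 3 fell with siControl replicate 2 and 3 left out, and 5 with siDAB2IP replicate 1 left out.

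Of 51 S phase genes, all tested, 25 fell (49.0%, against 7.65% of all genes tested) and 0 rose (6.55% of all genes tested), with 49 negative log2 fold changes and a median of −0.74. At an unadjusted edgeR p under 0.05, 40 were lower and 0 higher, and DESeq2 gave 26 lower and 0 higher. The shares over all genes at these settings are not given here, so these counts cannot be set against them. This list shares 5 genes with the lists above, CHAF1A, CHAF1B, SLBP, CCNE1 and CCNE2. TYMS, the thymidylate synthase, was at 14.2 ± 1.45 CPM in siControl and at 6.56 ± 1.47 CPM in siDAB2IP (SD, n = 3). The median difference of the list from the siControl mean was −0.69, −0.41 and −1.11 on the log2 scale in siDAB2IP replicates 1, 2 and 3, and that of the 21 histone genes −0.24, −0.19 and −0.38. Replicate 3 was the lowest and replicate 2 the least low in both. For the 17 histone genes left without the 4 that fell, this order was not seen, with −0.12, −0.13 and −0.12 in siDAB2IP replicates 1, 2 and 3, and siControl replicate 3 was lower still at −0.22. Of the 4, HIST1H1C alone had the order of the S phase list in siDAB2IP. HIST1H2AC and HIST2H2BE were highest in replicate 1, and HIST1H4H was highest in replicate 3. The 4 were also set apart by their values in these same libraries. Some of the gaps in these orders are small, as for HIST1H1C, with 5.64 and 5.76 CPM in siDAB2IP replicates 1 and 2. The orders describe these libraries only, and the part of S phase in the fall of the 4 histone genes was not tested. Without siDAB2IP replicate 3, the same number of histone genes, 4, fell. The 25 were 11, 6 and 8 without siControl replicates 1, 2 and 3 and 14 without siDAB2IP replicate 1. No test compared the lists.

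**Figure D5:**
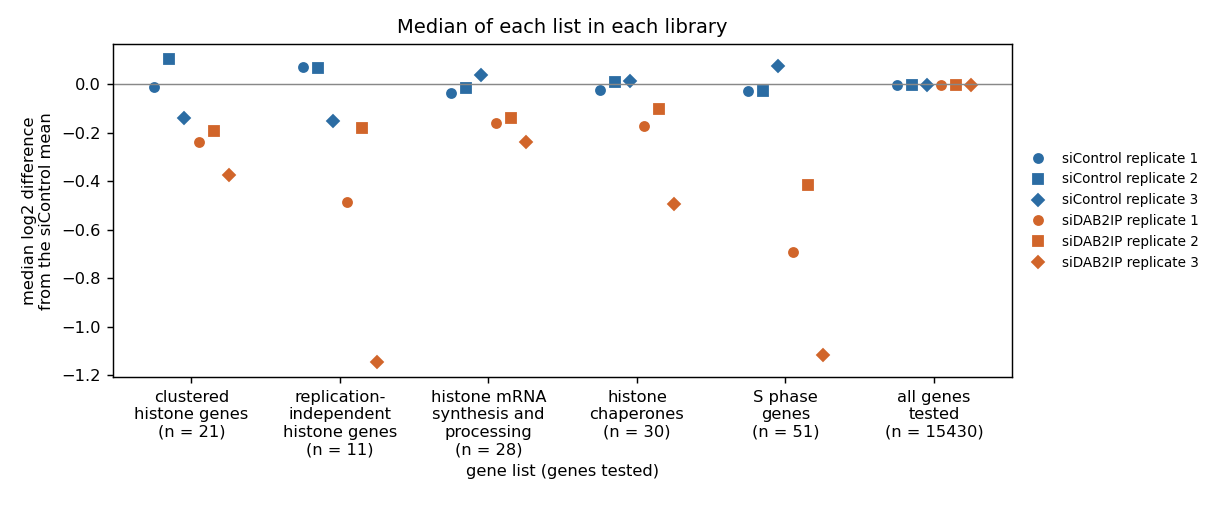
Median over the tested genes of each list of the log2 difference from the siControl mean, in each siControl library (blue) and siDAB2IP library (orange), with the replicate given by the symbol. The siDAB2IP libraries lie between −0.19 and −0.38 for the clustered histone genes and between −0.41 and −1.11 for the S phase genes, and the median over all 15430 genes lies near 0 in every library.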

How the data were processed

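RNA-Seq counts of 6 MCF10A libraries were used, 3 siControl and 3 siDAB2IP, grouped by the labels. The authors deposited whole-number counts per gene, without normalization, and a table of FPKM values, which the authors had divided by gene length and library total. The submitters' processing notes name STAR 2.6.1d, featureCounts 1.5.0-p3, DESeq2 1.20.0, edgeR 3.24.3 and hg38. The setting for strand and for reads that map to several places, and any poly(A) selection, are not given in the sources used here. Both affect histone genes, which have near-identical copies and mRNAs without a poly(A) tail.

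All genes were fitted together in R 4.3.3 with edgeR 4.0.16 (filterByExpr, TMM, glmQLFit, glmQLFTest, siDAB2IP over siControl), and p-values were adjusted by Benjamini-Hochberg over the 15430 genes that passed the filter. Called means an adjusted p under 0.05. CPM values are TMM-scaled, and standard errors come from the quasi-likelihood F statistic. Medians per library use log2(CPM + 0.1). Intervals and the limit of 3 counts cover counting error only. Totals per library were 16353783 to 21916062 counts.

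Transcripts, exons and coding parts are from GENCODE release 29 on GRCh38, which matches the tables, and promoters from RefSeq on GRCh38.p14, matched by current symbol or a unique older one. Where RefSeq gives 2 members the same start, the window was kept for the nearer gene model. The alternatives were DESeq2 1.42.0, its size factors in edgeR, library size only, no filter, the replicate number as a block, limma 3.58.1 on log2(FPKM + 1) and log2(FPKM + 0.1) with an FPKM minimum of 1 and without it, and each library left out. The scripts were tested on simulated data. The members and lists were chosen with earlier results of these data known. Named genes are DAB2IP, the members called, the 10 members tested with the highest FPKM, the highest of each class, at most 8 called members of each other list by p, SLBP and NPAT. Other members tested are named to account for all 21.

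Log2 CPM deviations of same-numbered libraries correlated across genes at 0.26, 0.15 and 0.25 and of others at −0.28 to 0.02. The deviations of each gene sum to 0 within a group, so these correlations depend on each other. Same-numbered libraries also share the first letter of their column names, so the replicate numbers may pair the libraries. The main fit did not use this pairing, and its p-values are unpaired. A fit with the number as a block was an alternative. The labels do not say what a number stands for.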

Additional observations from a re-analysis of the deposited data

How the results depend on the processing

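The number of histone genes that fell, 4, was 4 with DESeq2, its size factors, library size only, no filter, limma on log2(FPKM + 1) and the replicate block, 3 with limma on log2(FPKM + 0.1), 1 with limma on log2(FPKM + 1) without a filter, and 0 to 4 with 1 library left out. None rose in any of these fits. The median log2 fold change of the members tested was −0.57 with DESeq2, −0.58 without a filter (both over 57 members), −0.15 and −0.22 with limma on log2(FPKM + 1) and log2(FPKM + 0.1), −0.10 with limma without a filter, and −0.21 to −0.49 with 1 library left out. The log2 ratio of the summed CPM stayed between −0.19 and −0.30. Detection was 57 at 1 count in any library, and 24 and 18 at a minimum of 3 and 10 counts in every library.

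For the lists, limma on log2(FPKM + 1) without a filter left 0 replication-independent histone genes, 0 processing genes, 1 chaperone gene and 1 S phase gene that fell, and 0 chaperone genes that rose. With the filter, limma on log2(FPKM + 1) and log2(FPKM + 0.1) each gave 1 processing gene and 5 chaperone genes that fell, and log2(FPKM + 0.1) gave 16 S phase genes. With 1 library left out, the genes that fell numbered 0 to 6, 0 to 3, 2 to 9 and 6 to 33 in these lists, and 0 to 1 processing genes and 0 to 1 chaperone genes rose. The cause of these differences was not tested, but fits without 1 library have fewer samples.

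With the replicate number as a block, 2 chaperone genes rose instead of 1, and no other count above moved by over 1.5 times. In that fit 34 S phase genes fell instead of 25, and 5 replication-independent histone genes fell instead of 4. With 1 library left out, 3 of the histone genes named by the rule changed sign, and the signs of the other members were not looked at in these fits. HIST1H2BD lay between −0.19 (without siControl replicate 3) and 0.17, and was −0.03 without siDAB2IP replicate 3. HIST1H4I lay between −0.27 and 0.051 (without siControl replicate 1), and HIST3H2A between −0.016 (without siControl replicate 3) and 0.27. The filter on low counts left 50 of 71 members out of the test.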

Other observations

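A further 19 genes of the tables have names of the same form but are not annotated as protein coding, and they were not members. Of these, 12 had a count and 2 were tested, HIST2H2BC and HIST2H2BD, transcribed pseudogenes of the HIST2 cluster on chromosome 1. HIST2H2BC (149844498 to 149850937, GRCh38) was at 29.8, 26.5 and 22.6 CPM in the siControl libraries and at 21.8, 16.4 and 20.4 CPM in the siDAB2IP libraries, more counts than all but 1 of the members. All siDAB2IP libraries were lower, with a log2 fold change of −0.43 (standard error 0.15) that was not past the threshold (edgeR adjusted p = 0.0891). HIST2H2BD (149842875 to 149846486) overlaps it in position and was at 8.598, 8.96 and 7.87 against 5.25, 5.87 and 6.38 CPM, a log2 fold change of −0.54 (standard error 0.17, edgeR adjusted p = 0.0572). Reads of these 2 genes and of the H2B members of the cluster may be hard to tell apart, which was not tested.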
